A study of Mus musculus with 5 samples.

Results

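Granulocyte lineage cells were present among the cells released from the growth plate cartilage of the femur and tibia of newborn mice, and 339 of 82516 kept cells (0.411%) belonged to them. A kept cell had 200 to 6000 detected genes and at most 10% of its unique molecular identifiers (UMIs, 1 per captured RNA molecule) from mitochondrial genes. A granulocyte lineage cell was a kept cell with at least 20 UMIs summed over S100a8, S100a9, Ngp, Camp, Mpo and Elane and at least 1 UMI of the leukocyte genes Ptprc or Itgam. It also had fewer than 5 UMIs summed over C1qa, C1qb and C1qc and fewer than 200 UMIs of Col2a1 per 10,000 UMIs of the cell.

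Littermates of 2 genotypes, with the strain labelled C57BL/6J, were compared. The Cre line that gave rise to the mutants came from a B6SJLF1 background before its crosses to C57BL/6J, so the pups may be of mixed background. The pups called WT here (pups 1 and 2) were labelled wild type, and the pups labelled mutant (pups 3, 4 and 5) carried a conditional knock-in of the p.R594H change in the calcium channel gene Trpv4 that was switched on by Col2a1-Cre. The Col2a1 promoter drives this recombinase in chondrocytes, and the counts do not show whether any blood cell carried the recombined allele. The age was postnatal day 3 in the text of the series and postnatal day 5 in the labels of the samples. Each pup was captured as 1 library on the BD Rhapsody system, which pairs single cells with barcoded beads in microwells, so the pup was the replicate.

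Granulocytes arise in the bone marrow from dividing progenitors and fill their cytoplasm with granules in a fixed order. Azurophil granules with myeloperoxidase and serine proteases are made first by promyelocytes, specific granules with lactoferrin and cathelicidin follow in myelocytes, and gelatinase granules, chemokine receptors and secreted mediators come last in the mature neutrophil. C/EBP factors and PU.1 are well known activators of granule genes. Growth plate cartilage holds no blood vessels of its own but borders on vascular marrow.

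The promoters of granule genes from the early, middle and late part of this order are shown because their transcripts separated the cells described below. Each is the 250 bases before the gene's start from RefSeq (build GRCm38.p6, the assembly also called mm10), written 5′ to 3′ on the strand of the gene. Capitals mark matches to TTGCNNAA, a core form of the C/EBP motif, or to GAGGAA, the core of the PU.1 motif, on either strand (TTNNGCAA and TTCCTC on the other). The first pair, Mpo and Elane, encode azurophil granule enzymes.
Mpo, chr11:87793534-87793783, plus strand: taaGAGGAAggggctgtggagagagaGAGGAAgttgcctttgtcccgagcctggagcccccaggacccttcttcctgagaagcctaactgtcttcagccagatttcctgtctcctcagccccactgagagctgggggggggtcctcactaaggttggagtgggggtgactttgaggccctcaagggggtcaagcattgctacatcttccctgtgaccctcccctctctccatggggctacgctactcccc
Elane, chr10:79886062-79886311, plus strand: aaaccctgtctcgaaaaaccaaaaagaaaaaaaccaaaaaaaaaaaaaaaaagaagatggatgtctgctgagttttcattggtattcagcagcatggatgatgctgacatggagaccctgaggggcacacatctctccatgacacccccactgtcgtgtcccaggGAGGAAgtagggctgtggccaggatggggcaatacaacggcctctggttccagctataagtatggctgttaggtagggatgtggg
Ngp and Ltf encode the specific granule proteins neutrophilic granule protein and lactoferrin.
Ngp, chr9:110419558-110419807, plus strand: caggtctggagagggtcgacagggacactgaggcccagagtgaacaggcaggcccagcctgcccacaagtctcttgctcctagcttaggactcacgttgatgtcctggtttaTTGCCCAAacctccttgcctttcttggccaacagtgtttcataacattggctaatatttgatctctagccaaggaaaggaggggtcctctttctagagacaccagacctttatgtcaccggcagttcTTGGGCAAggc
Ltf, chr9:111019042-111019291, plus strand: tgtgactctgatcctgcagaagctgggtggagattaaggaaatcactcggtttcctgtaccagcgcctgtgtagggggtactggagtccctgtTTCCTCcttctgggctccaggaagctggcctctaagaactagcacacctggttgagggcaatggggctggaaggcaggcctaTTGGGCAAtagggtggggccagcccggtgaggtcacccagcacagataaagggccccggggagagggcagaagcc
Mmp8 and Retnlg encode neutrophil collagenase and a secreted resistin-like protein of late cells.
Mmp8, chr9:7558179-7558428, plus strand: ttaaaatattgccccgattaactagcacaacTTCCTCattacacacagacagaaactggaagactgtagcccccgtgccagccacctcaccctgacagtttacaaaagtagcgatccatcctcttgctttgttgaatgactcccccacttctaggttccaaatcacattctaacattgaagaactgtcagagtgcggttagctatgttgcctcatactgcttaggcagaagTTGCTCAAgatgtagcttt
Retnlg, chr16:48872358-48872607, plus strand: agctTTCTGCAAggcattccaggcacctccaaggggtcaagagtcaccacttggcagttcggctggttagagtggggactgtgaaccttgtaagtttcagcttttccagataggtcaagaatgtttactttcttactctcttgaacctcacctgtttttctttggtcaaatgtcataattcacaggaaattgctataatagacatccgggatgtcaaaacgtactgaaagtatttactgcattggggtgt

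The Mpo window held 2 matches of the PU.1 core and none of the C/EBP core, while the Ngp window held 2 of the C/EBP core, 138 and 11 bases before the start, and none of the PU.1 core. Ltf and Mmp8 held 1 of each, Elane 1 PU.1 core and Retnlg 1 C/EBP core. Over 32851 promoter windows of the same length, 9.56% held the C/EBP core, 23.3% the PU.1 core and 2.07% both. Among genes of the lists used below, the C/EBP core was in 1 of 9 azurophil, 4 of 12 specific granule and 3 of 17 late promoters with a sequence. The PU.1 core was in 5, 8 and 8 of them. A match describes these letters only and says nothing of binding. Several granule genes were neighbours: Prtn3 (chromosome 10, 79879667 to 79883174) lies beside Elane (79886312 to 79888216), and S100a8 (chromosome 3, 90669071 to 90670034) beside S100a9 (90692630 to 90695721).

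The 5 libraries held between 117746735 and 183322632 UMIs and 13814 to 19133 kept cells each. The granulocyte lineage cells together held 1977360 UMIs in WT pup 1, 432761 in WT pup 2, 278527 in mutant pup 3, 31680 in mutant pup 4 and 154298 in mutant pup 5. Their median depth was 7777 and 5355.5 UMIs per cell in WT and 3660, 2741 and 4828 in mutant pups, so both WT pups were deeper than every mutant pup. WT pup 1 alone gave 54.0% of the cells and mutant pup 4 only 8, so that values of pup 4 rest on little RNA. Between any pair of libraries 3 to 7 of the deposited cell barcodes were shared. Xist, transcribed from the inactive X chromosome, was at 0 and 0 in WT and 4.13, 1.89 and 0 in mutant pups, in UMIs per 10,000, and the Y-linked Ddx3y at 1.97 and 2.61 in WT and 0.0359, 0 and 2.59 in mutant pups. Mutant pups 3 and 4 thus stood apart from the other 3 pups in both genes, and their part in any difference between genotypes was not tested.

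Trpv4 itself was scarce in these cells, with 14 UMIs in 13 of 339 cells (3.83%). In cells with at least 200 Col2a1 UMIs per 10,000, of which there were 48164, it was detected in 33450. Median depths by pup were 2741 to 7777 UMIs in the granulocyte lineage cells and 6769 to 10782 in the Col2a1-high cells. A Trpv4 UMI does not tell the mutant from the wild-type allele in these counts, so the knock-in could not be checked here.

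The samples were labelled chondrocytes, and the rule kept Col2a1 low, with a median of 6.85 UMIs per 10,000 in the granulocyte lineage cells. S100a8 and S100a9, which encode the subunits of the calcium-binding protein calprotectin, were detected in 95.3% and 92.6% of them. In the Col2a1-high cells, which should lack granule genes, S100a8 was detected in 0.60%, Ngp in 0.382% and Mpo in 0.185%. Of genes the rule did not use, Retnlg was detected in 63.1% of granulocyte lineage cells, Mmp8 in 62.2%, Ltf in 45.4% and Prtn3 in 27.1%. Retnlg was detected in 0.343% of the Col2a1-high cells.

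Some cells that met the rule carried transcripts of other lineages. In 60 of the 339 cells (17.7%) at least 10 UMIs came from 6 genes of monocytes, among them Csf1r, Ms4a6c, F13a1, Ccr2 and Ctss. In 27 (7.96%) Col1a1 and Col1a2, the fibrillar collagen genes of bone and fibrous tissue, reached 200 UMIs per 10,000, and 4 cells had both traces. In 16 cells at least 3 UMIs came from eosinophil genes or from basophil and mast cell genes. In 4 cells haemoglobin genes reached 10 UMIs per 10,000, 3 in WT pup 2 and 1 in mutant pup 3, with up to 1861. No doublet caller was run. Whether these cells were doublets, or cells of another lineage that met the rule, was not tested. Values are therefore also given for the 256 cells without monocyte-rich and Col1a1-rich cells, a choice made after seeing the data.

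The limit of 20 UMIs crossed a thin part of the range. Of 393 kept cells that reached it, 381 had Ptprc or Itgam, 380 of those were low in C1q and 339 were also low in Col2a1. Cells just inside the limit (20 to 24 UMIs) numbered 11, and cells just outside it (15 to 19 UMIs) also 11. The median granulocyte lineage cell had 281 UMIs of the 6 genes.

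Granulocyte lineage cells made up a larger share of kept cells in both WT pups than in any mutant pup. The share was 1.21% in WT pup 1 (183 cells; exact 95% interval 1.04 to 1.40%) and 0.423% in WT pup 2 (70 cells; 0.330 to 0.534%). It was 0.287% in mutant pup 3 (55 cells, 0.217 to 0.374%), 0.0447% in mutant pup 4 (8 cells, 0.0193 to 0.0881%) and 0.166% in mutant pup 5 (23 cells, 0.106 to 0.250%). The groups did not overlap, but WT pup 2 was closer to mutant pup 3 than to WT pup 1. The intervals are Clopper-Pearson and cover counting error only. The mean was 0.816 ± 0.557% in WT (SD, n = 2) and 0.166 ± 0.121% in mutant pups (SD, n = 3), a difference of -0.650 percentage points. The 2-sided exact permutation test over 10 placements of the pups gave p = 0.1, the smallest it can give. Adjusted over 4 shares, this one and those of the stages described below, the permutation p was 0.3. The stage shares rest on sums that hold genes of the rule, so only the unadjusted p concerns this share alone. With 2 against 3 pups this permutation test cannot reach a threshold of 0.05.

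Depth moved with genotype, so each cell was also thinned to 1500 UMIs before the rule was applied, and no kept cell was too shallow for it. The shares were then 0.708% and 0.254% in WT and 0.214%, 0.0335% and 0.116% in mutant pups, with no overlap and a difference of -0.359 percentage points. Without WT pup 1 the difference was -0.256 percentage points, and without WT pup 2 it was -1.04. Macrophages of the same libraries, defined by at least 5 C1q UMIs and fewer than 20 UMIs of the 6 granulocyte genes, made up 0.410% and 1.36% of kept cells in WT and 1.06%, 0.553% and 0.398% in mutant pups. There were 2.95 and 0.311 granulocyte lineage cells per macrophage in WT and 0.271, 0.0808 and 0.418 in mutant pups. By this measure the genotypes overlapped, since mutant pup 5 lay above WT pup 2. The amount of marrow or blood that each dissection carried over was not measured, so fewer granulocytes in the tissue and fewer recovered cannot be told apart.

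**Figure D1:**
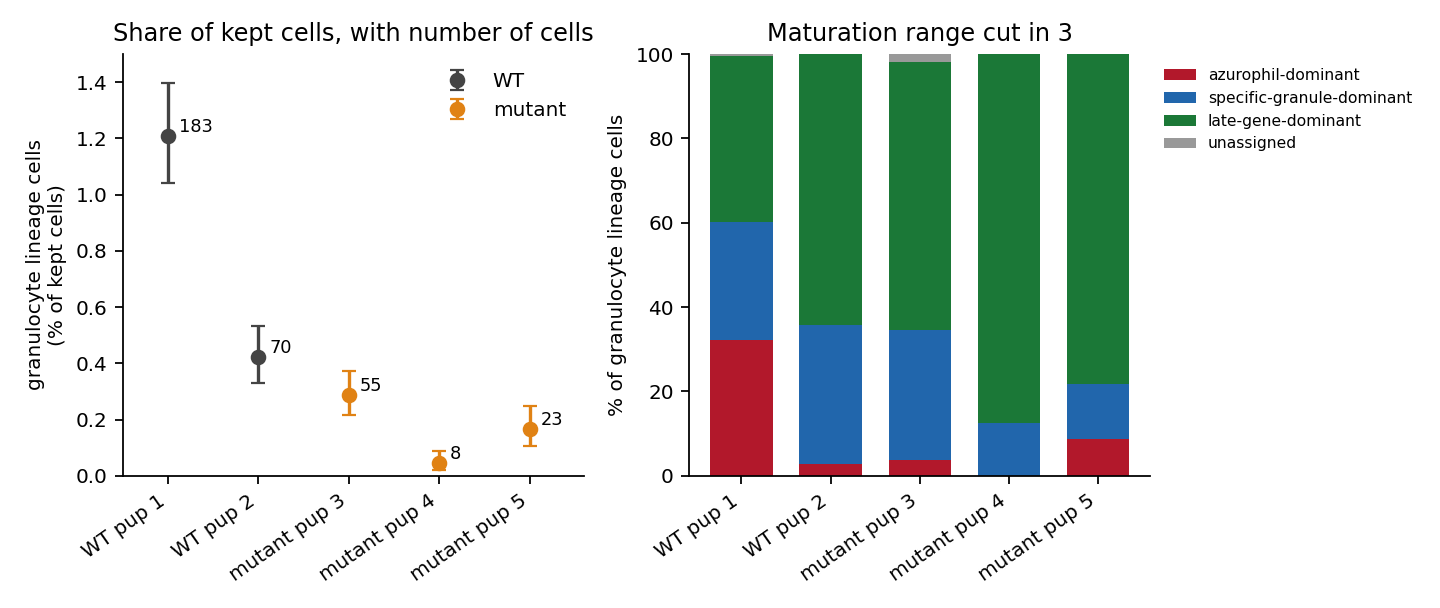
Left, granulocyte lineage cells as a percent of kept cells in each pup (points, with exact 95% binomial intervals); right, percent of these cells in each pup in which azurophil, specific granule or late genes gave the largest UMI sum. The WT pups (1.21% and 0.423%) lie above the mutant pups (0.287%, 0.0447% and 0.166%), and the azurophil share is 32.2% in WT pup 1 and at most 8.70% elsewhere.

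The cells spanned the maturation range. Each was placed by the largest of 3 UMI sums: azurophil genes (Mpo, Elane, Prtn3, Ctsg), specific granule genes (Ngp, Camp, Ltf, Chil3) and late genes (Mmp8, Mmp9, Retnlg, Cxcr2, Il1b). Azurophil genes led in 65 cells, specific granule genes in 95 and late genes in 177, and 2 cells had none of these genes. These are cuts of a range and not cell types, and in 63 cells the largest sum was under 2 times the next. The cells were divided by these genes, so levels by stage are descriptions with no test.

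Neighbouring programs overlapped in single cells and distant ones hardly did. Specific granule and late genes both reached 10 UMIs in 142 cells, azurophil and specific granule genes in 32, and azurophil and late genes in 5. All 3 programs reached 10 UMIs in 3 cells. Of the 177 late-dominant cells 174 had 0 azurophil UMIs, and of the 65 azurophil-dominant cells 44 had 0 late UMIs. At the late end 80 of 177 cells had 0 specific granule UMIs, and 35 of those 80 were rich in monocyte genes. Late genes were under 10 UMIs in 37 late-dominant cells, of which 27 were rich in monocyte genes. Both the name granulocyte lineage and the late stage are therefore uncertain for late-dominant cells rich in monocyte genes. Of the 65 azurophil-dominant cells 13 were also rich in monocyte genes, 11 of them in WT pup 1. Among these in WT pup 1, azurophil sums of 4, 1 and 1 UMIs stood beside 47, 23 and 57 UMIs of monocyte genes. The same doubt holds for azurophil-dominant cells with so few azurophil UMIs.

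**Figure D2:**
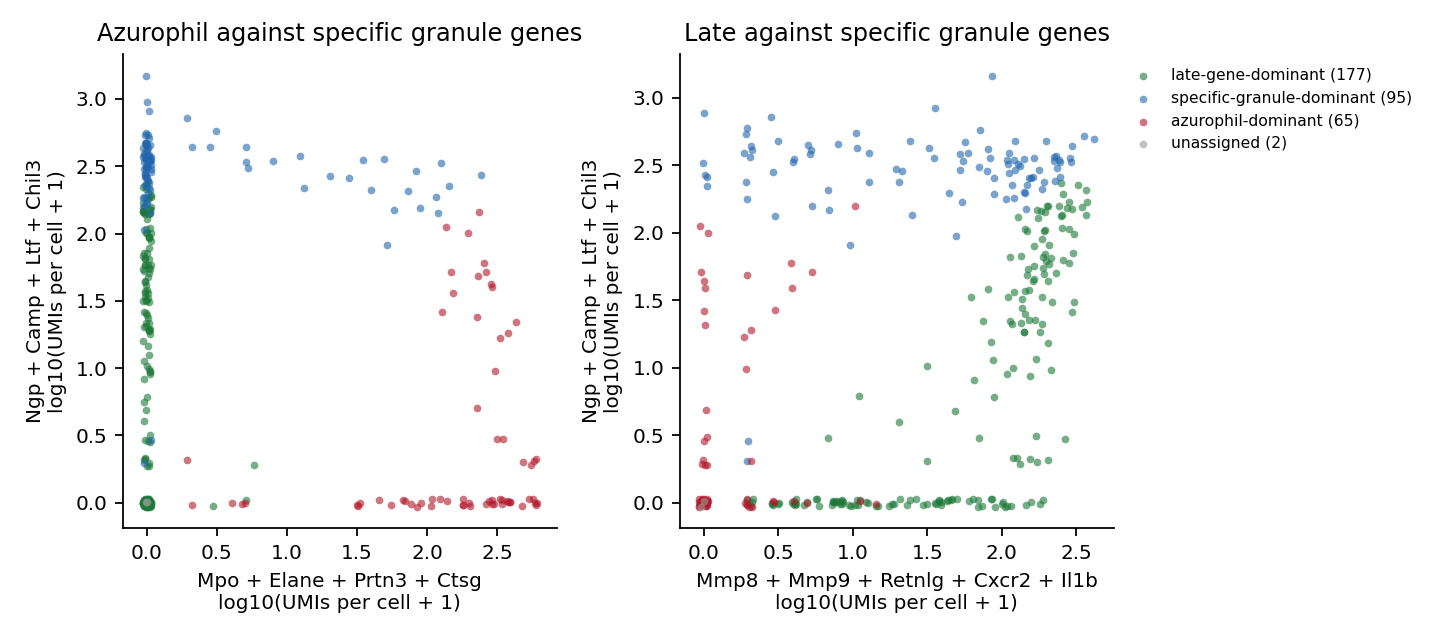
Each point is 1 granulocyte lineage cell, placed by its UMI sums (log10 of UMIs plus 1, with slight jitter) of specific granule genes and of azurophil genes (left) or late genes (right), and coloured by its largest sum. Specific granule and late sums both reach 10 UMIs in 142 cells, and azurophil and specific granule sums in 32.

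RNA content per cell was highest at the early end. Azurophil-dominant cells had a median of 18638 UMIs and 4696 genes, specific-granule-dominant cells 6380 UMIs and 1984 genes, and late-dominant cells 3921 UMIs and 1331 genes. The mitochondrial share had a median of 6.08%, 2.04% and 0.909% of UMIs in that order. Levels by stage from here on are UMIs per 10,000 UMIs pooled over the cells of a stage, given in the order azurophil, specific and late. They compare stages for 1 gene and not genes with each other. The azurophil level is nearly that of WT pup 1, which gave 59 of the 65 cells. Of 10946 genes with at least 10 UMIs, 52.2% were highest in azurophil-, 17.7% in specific-granule- and 30.1% in late-dominant cells.

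Of the azurophil genes, Mpo (myeloperoxidase, which makes hypochlorous acid) stood at 64.4, 7.39 and 0. The serine proteases Prtn3 (proteinase 3), at 31.9, 7.01 and 0.113, Ctsg (cathepsin G), at 21.9, 0.760 and 0, and Elane (neutrophil elastase), at 14.2, 3.05 and 0.0113, shared this order. Outside the genes of the sums, Ms4a3, a membrane protein of granulocyte and monocyte progenitors, was at 5.18, 1.53 and 0.0113. Fcnb, the lectin ficolin B, was highest one stage later, at 5.0, 12 and 0.146, as was the protease inhibitor gene Serpinb1a at 6.60, 8.23 and 0.282. Ctsc, the protease that activates the serine proteases, ran against its list at 2.09, 1.0 and 6.80. Among the 256 cells the Ctsc levels were 0.955, 0.653 and 1.58.

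All 14 specific granule genes were highest in the specific-granule-dominant cells. Ngp, Camp, Ltf and Chil3 among them formed the sum that chose these cells, so their place was largely set by the choice. Ngp stood at 2.80, 320.2 and 54.3 and Camp (cathelicidin, an antimicrobial peptide) at 3.38, 55 and 3.73. Ltf, whose protein lactoferrin binds iron, stood at 0.0242, 45.7 and 9.47. Among genes that were in no sum, Lcn2 (lipocalin 2, which binds bacterial siderophores) was at 0.854, 70.6 and 24.3, Anxa1 (annexin A1) at 6.66, 35.8 and 10.3 and Lyz2 (lysozyme) at 3.43, 43.8 and 37.5. Olfm4, a marker of a neutrophil subset, was at 0.725, 17.4 and 13. Its order changed in the 256 cells, to 17.1 in specific and 22.5 in late cells, while the other 13 genes stayed highest in specific cells.

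Late genes differed in how early they began. Retnlg stood at 0.00806, 91.8 and 179.9 and Mmp8 at 0.0161, 12.9 and 19.7, both already high with the specific granules. Il1b (interleukin 1 beta) was low until the late cells, at 0.234, 0.978 and 14, as was its decoy receptor gene Il1r2 at 0.129, 1.82 and 6.40. Of genes outside the sums, the lectin receptor gene Clec4d was at 1.38, 4.06 and 19.7 and Trem1, an amplifier of inflammatory signals, at 0.830, 6.58 and 14.5. Of the 20 late genes 17 were highest in late cells, and the others were Stfa2l1, Wfdc21 and Fpr2. The 20 include Mmp8, Mmp9, Retnlg, Cxcr2 and Il1b, whose sum chose the late cells, so all counts of late genes here are partly set by the choice. Within pups 18 of 20 were higher in late than in specific-granule-dominant cells in WT pup 1 and mutant pup 3, but only 9 in WT pup 2, where 11 were higher in the specific cells. Within WT pup 2 this turned in the 256 cells, with 16 of 20 higher in late cells. Pooled over pups 19 of 20 late genes were highest in late cells of the 256, and Retnlg reached 308 in late cells.

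Inflammatory genes ran with the late genes, with 13 of 14 highest there, beside 30.1% of all genes with at least 10 UMIs. The 14 include Il1b, a gene of the sum that chose the late cells, so the count is partly set by the choice. Cxcl2, a neutrophil-attracting chemokine, stood at 0.298, 14.3 and 80.0. Cd14, a co-receptor for bacterial lipopolysaccharide, stood at 2.02, 5.57 and 18.3 and Il1rn, the antagonist of interleukin 1, at 0.0161, 3.68 and 14.1. All 17 immediate early genes were also highest in late cells, led by Zfp36, which destabilises cytokine transcripts, at 5.0, 10.1 and 37.6, and the transcription factor gene Fos at 4.17, 3.03 and 26.8. In the 256 cells 15 of 17 were, with Zfp36 at 3.04, 9.56 and 43.3. Whether handling of the cells took part in the immediate early levels was not tested.

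Markers of several other cell types were highest in late cells too, beside 30.1% of all genes with at least 10 UMIs. These were 13 of 13 chondrocyte, 8 of 8 fibroblast, 5 of 5 endothelial and 6 of 6 macrophage genes with as many UMIs. The summed fibroblast markers stood at 47.8, 56.8 and 303 and the chondrocyte markers at 16.5, 21.2 and 33.9. The macrophage markers stood at 0.927, 1.18 and 5.13. Within mutant pup 3, however, 10 of 13 chondrocyte markers were higher in specific-granule- than in late-dominant cells. Other marker lists were highest in azurophil-dominant cells, with 7 of 7 eosinophil, 5 of 6 mast cell and basophil, 3 of 3 lymphoid and 6 of 9 progenitor genes. Over all genes with at least 10 UMIs 52.2% were highest there, and the lymphoid and progenitor counts cannot be set apart from that share. In the 256 cells 5 of 9 progenitor genes were highest there. The 4 haemoglobin-rich cells were 3 late-dominant and 1 specific-granule-dominant, and the summed erythroid markers stood at 0.419, 15.3 and 16.3. In the 256 cells the fibroblast sum was 10.6 in azurophil and 44.1 in late cells, and 7 of 8 fibroblast, 12 of 13 chondrocyte and 4 of 6 macrophage genes were highest in late cells, as were 13 of 14 inflammatory genes. The part of these other transcripts in the inflammatory and immediate early levels was not tested.

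Proliferation genes had the opposite order, with 22 of 29 highest in azurophil-dominant and 7 in specific-granule-dominant cells. Over all genes with at least 10 UMIs these shares were 52.2% and 17.7%. Top2a, the topoisomerase of dividing cells, stood at 8.04, 7.78 and 2.46, and Hmgb2, a chromatin protein of cycling cells, at 26, 32.1 and 11.6. In the 256 cells the late levels were 0.852 for Top2a and 8.59 for Hmgb2. Per cell the summed proliferation list had a median of 98.7, 24.8 and 12.1 UMIs per 10,000. Specific-granule-dominant cells were uneven between pups, with a median of 81.8 in WT pup 1 and 15.6 in WT pup 2.

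Of 18 myeloid factors 8 were highest in azurophil-, 5 in specific-granule- and 5 in late-dominant cells, shares near those over all genes. Myb, a factor of progenitors, stood at 5.62, 0.815 and 0.0451, and Myc, a growth factor-induced regulator, at 4.22, 0.299 and 0.541. Gfi1, a repressor needed for neutrophil formation, stood at 0.838, 0.204 and 0.0113, and Cebpe, the C/EBP factor of specific granule formation, at 0.492, 0.815 and 0.0676. Myc, Gfi1 and Cebpe were picked after their values were seen, since they did not meet the limit for named genes. Cebpb, a C/EBP factor of mature and activated myeloid cells, was highest at the late end, at 1.30, 2.43 and 8.97.

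Of all genes with at least 10 UMIs 17.7% were highest in the middle of the range. The NADPH oxidase, which makes the superoxide of the respiratory burst, was highest there for 5 of 6 genes. Within pups 5 of 6 were higher in specific-granule- than in late-dominant cells in WT pup 1, 6 of 6 in WT pup 2 and 3 of 6 in mutant pup 3, and in the 256 cells 4, 5 and 4 of 6 were. Cybb, its catalytic subunit, stood at 2.96, 30.3 and 10.1, Ncf1, a cytosolic activator, at 3.47, 10.3 and 6.89, and Rac2, its GTPase, at 5.73, 10.6 and 7.0. The integrin chain gene Itgb2 was at 1.10, 7.11 and 6.77, and in the 256 cells it was highest in late cells, at 0.913, 6.90 and 8.14. Of 15 adhesion and chemotaxis genes 8 were highest in late cells, beside 30.1% of all genes with at least 10 UMIs. In the 256 cells 12 were, beside 29.9%. The chemokine receptor genes Ccr1 and Cxcr4 were at 0.596, 2.82 and 8.64 and at 3.40, 2.77 and 4.99. Csf3r, the receptor for the granulocyte growth factor G-CSF, was at 0.774, 0.896 and 2.75.

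**Figure D3:**
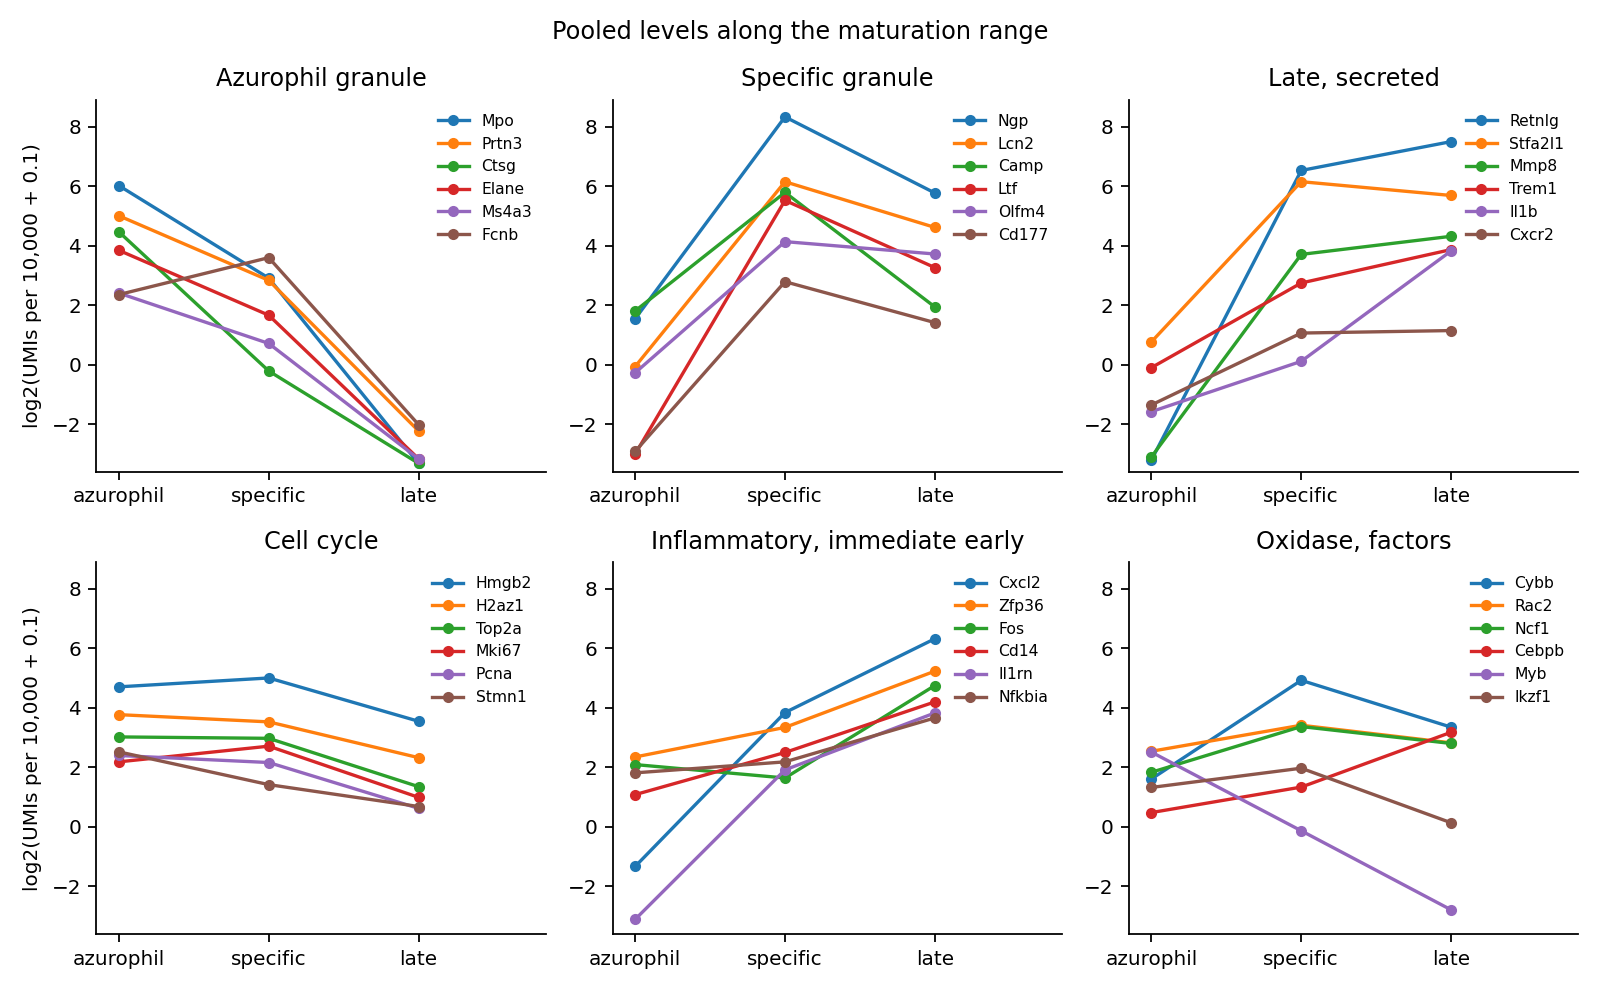
Pooled level (log2 of UMIs per 10,000 plus 0.1, vertical axis) of named genes in azurophil-, specific-granule- and late-dominant cells (horizontal axis). Mpo goes from 64.4 to 0 along the range, Ngp peaks in the middle at 320.2, as does Cybb at 30.3, and Cxcl2 is highest at the late end at 80.0.

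The order was also read within pups. In specific-granule-dominant cells Ngp was at 304, 389, 298 and 365 in pups 1, 2, 3 and 5, and in late-dominant cells of the same pups at 68.7, 34.3, 62.3 and 48.7. Retnlg was at 82.7, 134, 77.3 and 89.1 in specific-granule-dominant and at 223, 115, 241 and 118 in late-dominant cells of these pups. Ngp was higher in the specific cells of all 4, whereas Retnlg was higher in the late cells of pups 1, 3 and 5 and in the specific cells of WT pup 2. In the 256 cells Retnlg was higher in the late cells of WT pup 2 as well, at 140 in specific and 238 in late cells. Mutant pup 4 had 1 specific-granule-dominant cell and no azurophil-dominant one.

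Azurophil-dominant cells came mostly from 1 animal: 59 of 65 were from WT pup 1, with 2 each from WT pup 2, mutant pup 3 and mutant pup 5. They also held all 16 cells with at least 3 UMIs of eosinophil or of basophil and mast cell genes, 15 of them in WT pup 1. Prg2, the major basic protein of eosinophils, had 1199 UMIs in 3 cells, of which 1175 were in 1 cell. Mcpt8, a basophil protease, was detected in 20 of the 65 cells, and Cpa3, a protease of mast cells and basophils, in 14. In 24 of the 65 cells S100a8 and S100a9 together gave fewer than 20 UMIs. The genes Mcpt8 and Cpa3 were picked out after their values were seen.

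Shares of the stages were set side by side by genotype. The sums hold Mpo, Elane, Ngp and Camp, which are genes of the rule, so these shares are a description. Their permutation tests were run but serve only in the adjustment over 4 shares given above, and their p-values are not read here. Azurophil-dominant cells were 32.2% and 2.86% of granulocyte lineage cells in WT and 3.64%, 0% and 8.70% in mutant pups. WT pup 1 was high and WT pup 2 lay inside the mutant range, but every share outside WT pup 1 rests on at most 2 cells. Of the 2 cells in WT pup 2, 1 held 301 UMIs of basophil and mast cell genes. The other had 4 azurophil UMIs beside 40 of monocyte genes. In mutant pup 5, 1 of the 2 cells had 3 azurophil UMIs beside 29 of monocyte genes. The means were 17.5 ± 20.8% (SD, n = 2) and 4.11 ± 4.37% (SD, n = 3). Thinned to 1500 UMIs per cell, the share was 12.1% in WT pup 1 and the difference shrank from -13.4 to -6.07 percentage points. Among cells whose largest sum was at least 2 times the next, the unthinned difference was -18.9, with mutant pup 5 at 0%. Without WT pup 1 the unthinned difference over all these cells changed sign, to 1.25 percentage points, and without WT pup 2 it was -28.1. By the limit of 3 counts, the 0 of 8 cells in mutant pup 4 allows a share of up to 37.5%.

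Specific-granule-dominant cells were 27.9% and 32.9% in WT and 30.9%, 12.5% and 13% in mutant pups, with mutant pup 3 among the WT values. The means were 30.4 ± 3.53% and 18.8 ± 10.5%, a difference of -11.5 percentage points. After thinning it was -24.4, and the genotypes no longer overlapped. The thinned share was 41.1% and 40.5% in WT and 36.6% in mutant pup 3. In mutant pups 4 and 5 it rested on 0 of 6 and 2 of 16 cells. Without mutant pup 3 the unthinned difference was -17.6. Late-dominant cells were 39.3% and 64.3% in WT and 63.6%, 87.5% and 78.3% in mutant pups, with WT pup 2 just above mutant pup 3. The means were 51.8 ± 17.6% and 76.5 ± 12%, a difference of 24.7 percentage points. It was 12.2 without WT pup 1 and 37.1 without WT pup 2. The late shares did not overlap with a limit of 10 UMIs (24.1), a limit of 40 UMIs (25.5), after thinning (29.6) or without cells rich in monocyte genes (26.8). They overlapped with a mitochondrial limit of 20% (24.3), among cells with a clear largest sum (23.7) and without Col1a1-rich cells (26.3).

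Gene levels were then compared between genotypes over the summed UMIs of the granulocyte lineage cells of each pup. No gene passed edgeR's quasi-likelihood test at an adjusted p of 0.05 among 4749 tested (0% called), DESeq2 called 0, and 58 genes had an unadjusted p under 0.05 in edgeR. All mutant pups lay below all WT pups in 6.44% of the tested genes and above them in 5.58%. Fewer cells of a stage and less RNA of a gene per cell cannot be told apart in these sums.

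Of the genes in the rule, given as a description, S100a8 was at 127 and 242 in WT and 176, 188 and 199.6 in mutant pups, in UMIs per 10,000. Ngp was at 83.2 and 157 in WT and 150.0, 59 and 73.4 in mutant pups. Mpo was at 41.6 and 1.41 in WT and 6.68, 4.42 and 4.08 in mutant pups, so that WT pup 1 was high and WT pup 2 the lowest of all, and in the other 2 genes the genotypes overlapped too. Outside the rule, Prtn3 was at 21 and 1.18 in WT and 5.57, 8.84 and 6.03 in mutant pups, again with WT pup 1 highest and WT pup 2 lowest. Its log2 fold change (mutant over WT) was -0.74 ± 0.92 (SE), with an edgeR adjusted p of 0.999.

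Ltf was at 11.4 and 24.8 in WT and 23.9, 6.31 and 12.1 in mutant pups (log2 fold change -0.36 ± 0.57, edgeR adjusted p = 0.999). Retnlg was at 60.0 and 117 in WT and 153, 86.2 and 83.5 in mutant pups (0.24 ± 0.49, edgeR adjusted p = 0.999). Cybb was at 10.1 and 19.8 in WT and 16.9, 17 and 9.92 in mutant pups (-0.11 ± 0.48, edgeR adjusted p = 0.999). In none of these 3 did the genotypes separate. Cebpb was at 2.01 and 7.69 in WT and 7.32, 13.6 and 11 in mutant pups (1.00 ± 0.56, edgeR adjusted p = 0.999), with WT pup 1 lowest and mutant pup 3 just below WT pup 2.

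The lists held no called gene in either direction. Without the genes of the rule, the median log2 fold change was -0.69 over 8 azurophil, -0.20 over 11 specific granule and 0.25 over 20 late genes, beside -0.05 over all genes tested. It was -0.10 over 6 NADPH oxidase, 0.14 over 14 adhesion and chemotaxis, -0.27 over 14 inflammatory, 0.24 over 17 immediate early and -0.43 over 26 proliferation genes. Of the 10 azurophil genes tested, 2 of them genes of the rule, 0 had all mutant pups below all WT pups, beside 6.44% of all tested genes. So few genes cannot be set apart from that share. The smallest adjusted p belonged to Mcpt8, which was at 0.551 and 1.59 in WT and 0, 0 and 0 in mutant pups (edgeR adjusted p = 0.346), and 176 of its 178 UMIs were in azurophil-dominant cells. All 69 UMIs of Mcpt8 in WT pup 2 came from 1 cell, and 48 of the 109 in WT pup 1 from another.

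Single animals and the filter moved the count of called genes. Without a filter on low counts 5 genes were called by edgeR: Mcpt8, Prss34, Cpa3 and Gata2, all expressed in basophils or mast cells, were lower in mutant pups, and the collagenase gene Mmp13 was higher. These calls rest on few cells. The single cell that held Mcpt8 in WT pup 2 also held all 97 Prss34 and all 85 Cpa3 UMIs and 36 of 37 Gata2 UMIs of that pup. In WT pup 1 all 19 Prss34 UMIs were in 1 cell. Of the 23 Mmp13 UMIs in the mutant pups, all in pup 3, 22 were in 1 cell. With 1 WT pup left out, the spread came from the mutant pups alone, and the lone WT library was assumed to vary as they did. Leaving aside the genes of the rule, the count was 7 without WT pup 1, and 4 of these were Mcpt8, Prss34, Cpa3 and Gata2 again. Without WT pup 2 genes moved both ways: the log2 fold change was -2.23 for Ctsg and -2.70 for Myb, but 2.33 for Cebpb. Without mutant pup 5 the count was 2, Xist higher and Ddx3y lower. The log2 fold change of Prtn3, which the rule did not use, was -1.69 without WT pup 2 and 2.35 without WT pup 1. The genes named here outside the lists were picked after their values were seen.

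**Figure D4:**
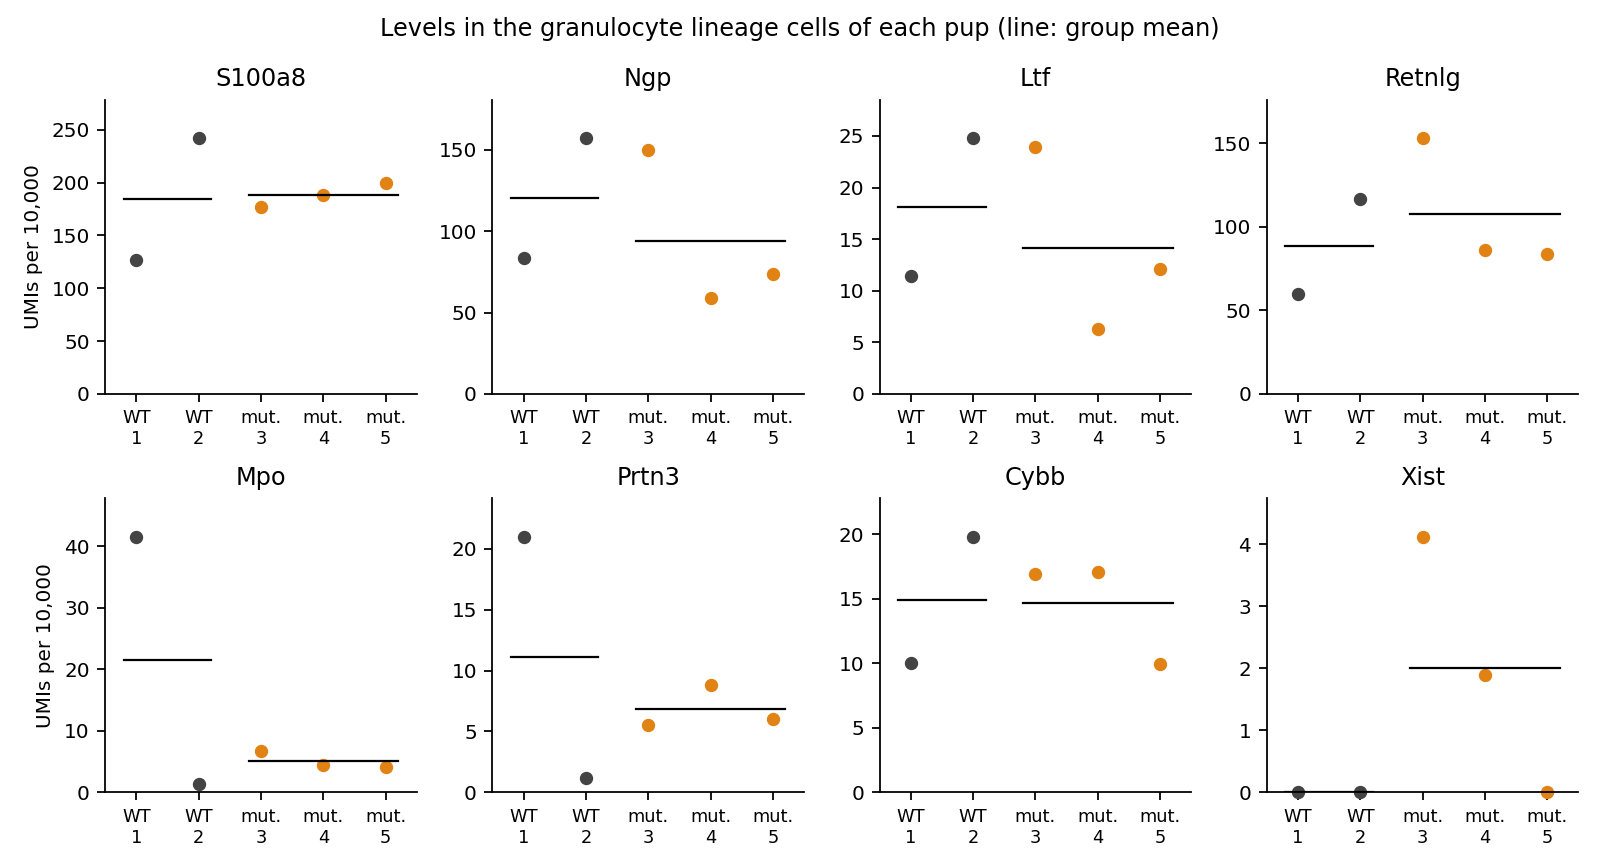
UMIs per 10,000 in the summed granulocyte lineage cells of each pup (vertical axis) for named genes, by pup and genotype (WT points grey, mutant points orange), with lines at the group means. Mpo is 41.6 in WT pup 1 and 1.41 in WT pup 2, with the mutant pups between 4.08 and 6.68.

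To place the cells among the myeloid cells of the same libraries, they were set against 644 C1q macrophages of the same pups. Both groups were chosen by genes of their kind, so marker genes had to differ, and the 12 genes of the rules are left out of all counts. Of 6775 genes tested with the pup as a block, 2348 (34.7%) passed edgeR's quasi-likelihood test at an adjusted p of 0.05, 1102 (16.3%) higher and 1246 (18.4%) lower in granulocyte lineage cells. Levels are UMIs per 10,000, given as the range over the 5 pups, granulocyte lineage cells first, and fold changes are log2 values with their SE.

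The filter on low counts passed 6 of 8 azurophil, 11 of 12 specific granule and 20 of 20 late genes outside the rules. Most granule genes passed through the granulocyte lineage cells alone and so had to differ, and their counts are a description. Only 2 azurophil, 2 specific granule and 12 late genes had at least 10 UMIs in both cell types, of which 1, 2 and 10 were higher in granulocyte lineage cells. Retnlg was at 60.0 to 153 and had 2 UMIs in all macrophages together. Lcn2 was at 19.7 to 42.6 with 3 macrophage UMIs, and Ltf at 6.31 to 24.8 with 1. These transcripts were close to absent from the macrophages of the same tissue. Cxcr2, the receptor for Cxcl2, was at 0.971 to 2.72 with 0 macrophage UMIs. Pooled over the cells of all pups, 54.0% of them from WT pup 1, it was at least 252-fold higher against a floor of 3 UMIs over all macrophages. Ctsc was the azurophil gene that was lower, at 2.10 to 8.81 against 20.2 to 27.6 (-2.36 ± 0.30). Lyz2, used by both cell types, was at 17.7 to 52.7 against 11.3 to 16.5 (1.38 ± 0.26).

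The 10 genes with the largest fold change included 5 of the stefin and cystatin family, inhibitors of cysteine proteases: Cstdc5, Stfa2, Stfa2l1, Stfa1 and Cstdc4. Stfa2 was at 33.7 to 84 with 2 macrophage UMIs, and Cstdc5 at 48.7 to 66.5 with 0. Pooled over the cells of all pups, Cstdc5 was at least 11725-fold higher by the floor. These genes lie together on chromosome 16, from Stfa2l1 (start 36156811) to Stfa2 (end 36408363), and are near copies of each other, so the counts of single members are uncertain. Along the maturation range Cstdc5 stood at 17.8, 139 and 53.2 and Stfa2 at 0.322, 80.9 and 80.3, and in the 256 cells Stfa2 was at 0.425, 82.3 and 132. The others were Retnlg, Ltf, Lcn2, Olfm4 and Il36g, a cytokine of the interleukin 1 family.

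The oxidase was higher for 5 of 6 genes, with a list median of 1.68 beside -0.05 over all genes. Over all genes tested 16.3% were higher and 18.4% lower. Rac2 was at 7.09 to 8.64 against 1.26 to 2.01 (2.36 ± 0.23, edgeR adjusted p = 6.12e-09), and Ncf1 at 5.64 to 9.79 against 1.45 to 2.26. Of 11 adhesion and chemotaxis genes with at least 10 UMIs in both cell types 6 were higher and 2 lower. The integrin chain gene Itgal was at 1.30 to 2.98 against 0.240 to 0.625, while C5ar1, the receptor for complement C5a, was lower at 1.72 to 7.58 against 6.34 to 11.3, with overlapping ranges. The nuclear envelope genes Lmnb1 and Lbr were higher, at 5.08 to 10.3 against 0.713 to 1.18 and at 3.30 to 7.32 against 0.564 to 0.714. Padi4, the enzyme that citrullinates histones when neutrophils release chromatin, was at 0.369 to 1.65 with 4 macrophage UMIs.

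Immediate early genes went the other way, with 13 of 17 lower and none higher in granulocyte lineage cells (median -1.52). Beside them, 18.4% of all genes tested were lower and 16.3% higher. Zfp36 was at 13.1 to 31.5 against 57.3 to 73.4 (-1.52 ± 0.24), and Fos at 6.16 to 15.1 against 30.4 to 43.5 (-1.59 ± 0.24, edgeR adjusted p = 5.6e-06). The cell types did not overlap in either gene. Of 14 inflammatory genes 4 were higher and 8 lower (median -0.90). Cxcl2 did not pass the test, at 21.5 to 46.2 against 29.8 to 86.3 (edgeR adjusted p = 0.38), and Il1rn was higher at 3.95 to 10.9 against 0.983 to 3.64. Of 29 proliferation genes 3 were higher and 1 lower (median 0.24), and Hmgb2 was higher at 11.7 to 26.6 against 5.17 to 7.11.

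Of 14 myeloid factors with at least 10 UMIs in both cell types 3 were higher and 6 lower. Over all genes with as many UMIs in both, 1041 of 6638 were higher and 1170 lower. Cebpe, which is not among the 14, had 0 macrophage UMIs and so had to differ. Pooled over the cells of all pups, it was at least 86.9-fold higher by the floor. Ets1 was higher at 0.855 to 3.47 against 0.107 to 0.296. Klf4 was lower at 1.49 to 3.77 against 5.72 to 11.4. Csf1r, the receptor for the macrophage growth factor M-CSF, was lower at 0.108 to 0.947 against 5.67 to 9.34. Csf3r was higher at 1.28 to 1.96 against 0.106 to 0.176, as was Csf2ra, a chain of the GM-CSF receptor, at 3.79 to 6.29 against 2.06 to 2.88.

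Macrophage markers were low, which the choice of both cell types made likely. Of 6 with at least 10 UMIs in both cell types 6 were lower. The mannose receptor gene Mrc1 was at 0 to 0.0693 against 19.2 to 26.7, and the chemokine gene Pf4 had 1 UMI in all granulocyte lineage cells. Of monocyte and dendritic cell genes 2 of 8 were higher and 6 lower. Ly6c2, a surface protein of monocytes and immature granulocytes, was higher at 7.32 to 12.7 against 0.0282 to 0.106. Hdc, the enzyme that makes histamine and is listed as a mast cell and basophil gene, was at 4.92 to 8.16 with 10 macrophage UMIs, and along the maturation range at 2.81, 5.66 and 9.73.

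**Figure D5:**
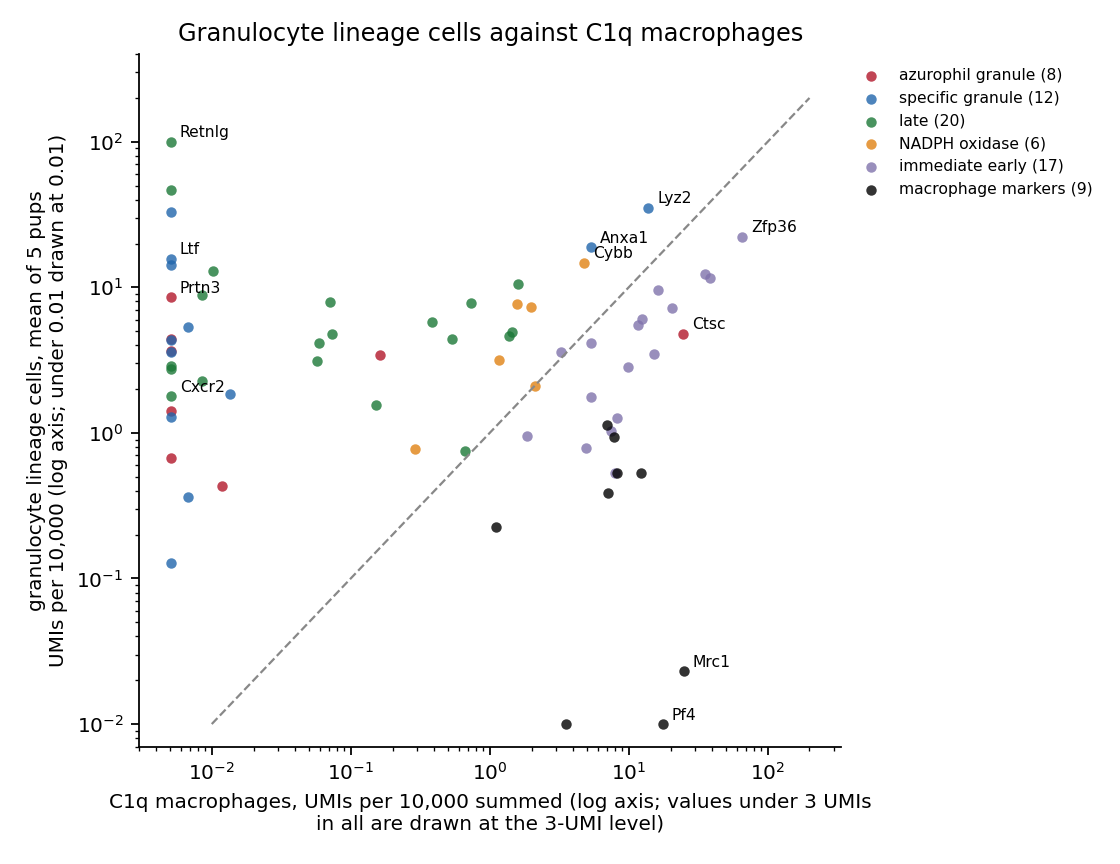
Level of list genes outside the rules in granulocyte lineage cells (mean over pups, UMIs per 10,000, log axis) against C1q macrophages (summed, log axis), 1 point per gene, with a dashed line at equal levels. Most granule and late genes lie above the line, many at the 3-UMI level of the macrophages, and macrophage markers below it, as do Ctsc and Zfp36 (65.7 in macrophages).

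Genes of calcium channels and calcium stores were listed because Trpv4 encodes a calcium channel. Of 10 tested against macrophages 5 were higher and 1 lower, beside 16.3% and 18.4% of all genes tested. Stim2, a sensor of calcium stores, was higher at 1.01 to 1.89 against 0.268 to 0.451 (1.90 ± 0.26), and Trpm7, a channel kinase, did not pass the test at 1.04 to 1.56 against 1.22 to 1.64. Between genotypes Trpm7 was at 1.40 and 1.04 in WT and 1.29, 1.26 and 1.56 in mutant pups (log2 fold change 0.16 ± 0.45, edgeR adjusted p = 0.999), and none of 9 genes of this list was called.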

How the data were processed

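Cells of 5 pups were analysed, 2 labelled wild type and 3 mutant. The files deposited by the authors hold raw UMI counts for each library, cells by genes, aligned to mm10 according to the submitters' processing notes; the pipeline version and the filter that called cells are not given in the sources used here. Of 84382 deposited cells 82516 were kept. UMIs of the member cells were summed per pup and tested with edgeR 4.0.16 (TMM scaling, filterByExpr, robust quasi-likelihood test, Benjamini-Hochberg adjustment at 0.05) under R 4.3.3, and again with DESeq2 1.42.0. The comparison with macrophages had the pup as a block. The share of granulocyte lineage cells was tested by an exact permutation over all placements of the pups. Its exact binomial intervals and its adjusted p came from scipy 1.17.1. The genotype p-values of edgeR and DESeq2 measure the spread between these animals, with variances partly shared across genes. Those of the comparison with macrophages measure how the difference within a pup varies between pups. Named genes were those of the rule, genes of the lists averaging 100 CPM or more (at most 4 for secondary lists), the 10 largest called fold changes each way with at least 50 CPM, and Xist, Ddx3y, Trpv4 and Col2a1. The members and lists were chosen with earlier results of these data known. Some genes counted in these lists are not reported here by name. The statistical scripts were tested on simulated data. Alternatives were another scaling, filter, test, UMI limit, mitochondrial limit, thinning, and leaving out each pup.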

Additional observations from a re-analysis of the deposited data

How the results depend on the processing

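The share of granulocyte lineage cells was lower in mutant pups under all 11 alternatives run, between -1.04 and -0.256 percentage points when 1 pup was left out. The difference in azurophil-dominant share lay between -28.1 and 1.25 percentage points when 1 pup was left out, and changed sign without WT pup 1. Genes called between genotypes numbered 0 in the reported fit, 5 without a filter on low counts, 2 in specific-granule-dominant cells alone, and 0 to 13 when 1 pup was left out. With 1 pup left out, log2 fold changes ran from -2.99 to 1.77 for Mpo, -1.93 to 2.90 for Elane, -1.69 to 2.35 for Prtn3, -2.23 to 1.51 for Ctsg, -1.0 to 0.23 for Ngp and -0.21 to 0.87 for Retnlg. Mpo, Elane and Ngp are genes of the rule, so their values are a description only. All but Ngp changed sign without WT pup 1, Ngp without WT pup 2, and Retnlg also without mutant pup 3 (-0.21). In specific-granule-dominant cells alone Prtn3 (0.43), Ctsg (0.82) and Retnlg (-1.06) changed sign. The causes were not tested. Calls against macrophages numbered 1915 to 3045 over 13 alternatives, 2511 without the pup as a replicate block. For 100 named genes in that comparison 1274 alternative values kept their side of the threshold, 21 lost their call and none changed sign. DESeq2, which was run without the filter on low counts and so changed both choices, gave a median log2 fold change of all genes of 0.16 between genotypes and 0.51 against macrophages. With edgeR, removing the filter moved it to -0.47 and -0.15. No paired analysis was possible because the labels give the genotypes no shared replicate number. The 8 cells of mutant pup 4 and 2 WT pups limit every comparison.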
